A study of Mus musculus with 12 samples.

Results

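The genes described here are 8 homeobox transcription factor genes of the proximal limb: Meis1, Meis2, Meis3, Pbx2, Pbx3, Irx3 and Irx5, which belong to the TALE class, and Shox2, which does not. They were listed by name rather than by a cutoff on measured values, with earlier results of these data known, and are 8 of 54532 genes in the expression table and 8 of the 232 that the table labels Homeobox. All 8 passed the filter on low values in every comparison. RNA was sequenced from mouse limb buds at embryonic stage E12.5, in 12 libraries that form 4 groups of 3, which the labels call biological replicates. The conditional knockout of Mettl14 (cKO) is labelled Mettl14 flox/flox, and the control (cHet) is labelled Mettl14 wt/flox, a heterozygote, so no group is wild type at Mettl14. The Cre line that drives the deletion, the strain, whether forelimb and hindlimb buds were combined and how many embryos went into a replicate are not given in the sources used here. Of each cytoplasmic lysate, RNA was sequenced from the sucrose gradient fractions that hold ribosome-loaded mRNA (polysome) and from the lysate itself (input). The groups are therefore cKO polysome, cHet polysome, cKO input and cHet input.

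Mettl14 encodes a subunit of the methyltransferase that places N6-methyladenosine (m6A) on RNA, a mark known to act on RNA decay and translation. TALE homeodomains are named for a loop extension of 3 amino acids. Meis and Pbx proteins bind DNA together, and in the limb Meis1 and Meis2 mark the cells closest to the body wall, where retinoic acid is high, while fibroblast growth factors from the distal ridge hold them off. Meis proteins help to keep Pbx proteins in the nucleus, and both share target sites with Hox proteins. Irx3 and Irx5 act together in mice in the early hindlimb field that forms proximal and anterior skeleton. Shox2 is needed in mice for growth of the upper limb bones and is the relative of human SHOX, the short-stature gene.

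The stretch of the homeodomain that enters the DNA groove separates these families, and it is printed from the coding sequence (mm10, GENCODE M21 gene models) to show how the 8 genes are related. Each line is the sense strand, 5′ to 3′, of 8 codons that begin with the invariant tryptophan. The capitals mark the codon of a residue that tells each family from all the others, while further residues differ between some families.
Meis1: tggtttATTaatgcccggagaaga
Meis2: tggtttATCaatgccagaagaaga
Meis3: tggtttATTaatgcccggagacga
Pbx2: tggttcGGTaacaagcgaattcgc
Pbx3: tggtttGGCaacaaacgaatcagg
Irx3: tggttcGCCaacgcgcgccggcgc
Irx5: tggtttGCCaacgcgcgccggcgc
Shox2: tggtttCAAaatcgaagagctaag
The marked codon encodes isoleucine in the Meis genes, glycine in the Pbx genes, alanine in the Irx genes and glutamine in Shox2. The proline-tyrosine-proline loop of the TALE class was found in the 7 TALE genes and not in Shox2. The stretch lies at chr17:34594810-34594833 (plus strand) in Pbx2, chr2:34178310-34178333 (minus) in Pbx3, chr8:91800514-91800537 (minus) in Irx3, chr8:92359774-92359797 (plus) in Irx5 and chr3:66975884-66975907 (minus) in Shox2. In the Meis genes an intron interrupts it, so that its ends span chr11:18885630-18905690 (minus) in Meis1, chr2:115868782-115921673 (minus) in Meis2 and chr7:16183866-16184059 (plus) in Meis3.

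Since the m6A writer complex favours the RNA form of GGACT, and m6A is known to gather near stop codons, the sense strand within 200 bases on either side of the stop codon was searched for these letters. Shown are the matches closest to the stop codon, with GGACT in capitals.
Meis1: cttttcctgcaaGGACTatggagttccat
Meis3: ccttgggcttcaGGACTtcacctccaaag
Pbx2: ggcaactcttaaGGACTctgggcatctag
Irx5: tgcggtatccccGGACTttcctaatttat
Shox2: cacgctggccgcGGACTcggcctcggccg
The first 4 windows lie in 3′ untranslated regions, 62, 91, 52 and 19 bases from the stop codon in the order shown, at chr11:18881561-18881589 (minus strand), chr7:16186115-16186143 (plus), chr17:34595956-34595984 (plus) and chr8:92360903-92360931 (plus). That of Shox2 (chr3:66973757-66973785, minus) is coding, 117 bases before the stop. A match was present in 5 of the 8 genes and in 41.6% of 10457 tested genes searched in the same way. Meis2, Pbx3 and Irx3 held none in this window. Over the whole transcript the density ran from 0.387 per kb in Pbx3 to 2.49 per kb in Meis2, beside a median of 1.05 per kb over all genes searched. Methylation itself was not measured in these libraries, and a match of letters is not a methylated site.

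Depth was 10349912 to 30068823 assigned reads per library. The floxed gene, Mettl14, had 2.60, 3.32 and 1.26 FPKM (fragments per kilobase of gene length, adjusted for library depth) in cKO input and 4.09, 4.03 and 4.04 in cHet input. On polysomes it had 2.73, 2.81 and 3.29 in cKO and 2.83, 3.07 and 3.02 in cHet, where the groups overlapped, so the cKO polysome labels were not borne out by this gene. These values cover the whole gene model, and the deleted exons are not given in the sources used here. The limb mesenchyme marker Prrx1 lay between 37.7 and 56.0 FPKM in every library. On principal components, cKO input replicate 3 lay away from its group (−63.0 on the second component, with the rest of the input at 0.49 to 22.5), as did cKO polysome replicate 1 (3.97 on the first component, with the remaining polysome libraries at 35.5 to 53.8). These are called the libraries that stood apart, and the results they moved most are also given without them.

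By FPKM, Pbx2 and Shox2 were the abundant members and Meis1 the scarcest. FPKM divides by the length of the whole gene model, which can exceed that of the transcript searched for GGACT. Model and transcript had 10532 and 3346 bases in Meis1, 12043 and 2810 in Meis2, and 6109 and 2587 in Pbx3. In Pbx2 they had 3640 and 3068. Levels, order and ranks across genes therefore depend in part on the gene models, and were not rescaled to transcripts. Pbx2 averaged 99.9 ± 15.5 FPKM on cKO polysomes, 124 ± 9.53 on cHet polysomes, 69.9 ± 6.30 in cKO input and 69.1 ± 1.23 in cHet input (SD, n = 3 each, as for all means below). Shox2 followed with 73.9 ± 6.32, 73.3 ± 5.52, 62.5 ± 4.12 and 61.1 ± 3.24 FPKM in the same order of groups. The levels ran in 1 order in all 4 groups, Pbx2, Shox2, Irx5, Irx3, Pbx3, Meis2, Meis3 and Meis1. In that order the libraries of Irx5 and Irx3 overlapped in both cKO groups. Pbx3 overlapped with Meis2, and Meis3 with Meis1, in every group other than cHet polysome, so these neighbours did not differ beyond their spread there. Among the 232 homeobox genes, Pbx2 ranked 4 to 5 and Shox2 6 to 8 over the 4 groups, while Meis1 ranked 77 to 86. The other members ranked between 29 (Irx5) and 76 (Meis3). The reads behind these values ran from 133 to 333 per library for Meis3, the least covered member, and from 4639 to 11192 for Pbx2. In whole limb buds, fewer cells that express a gene and less RNA per cell cannot be told apart.

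**Figure D1:**
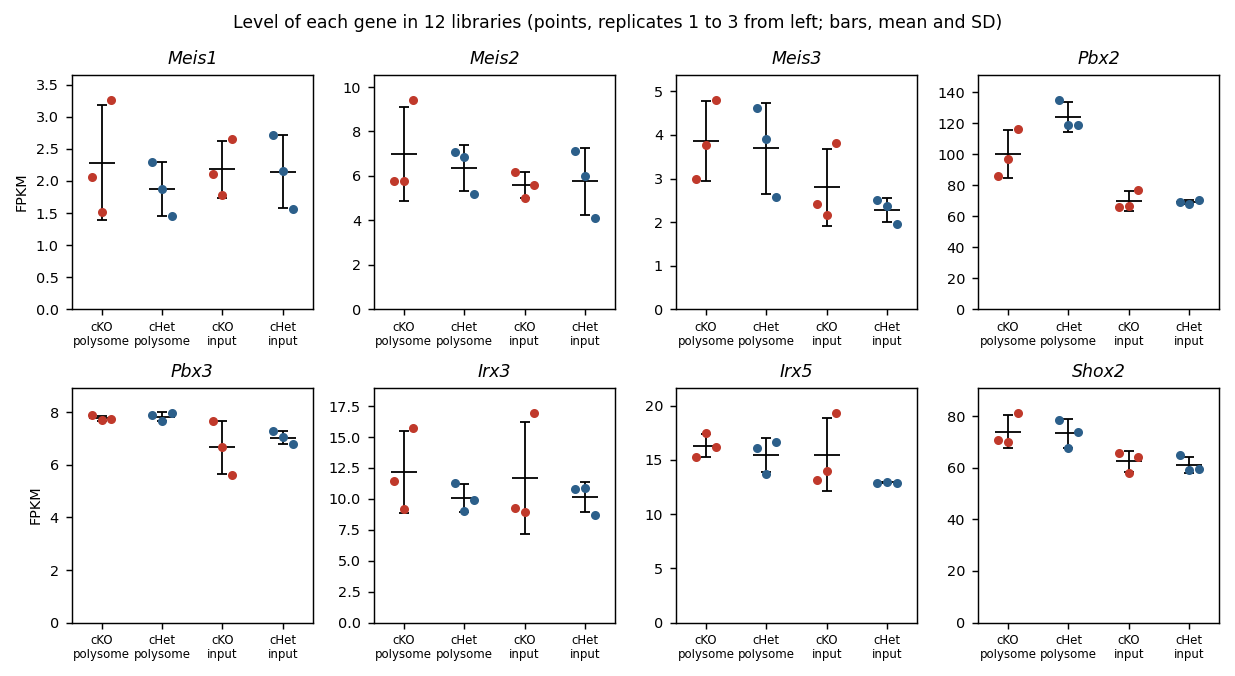
FPKM of each of the 8 genes (vertical axis, a linear scale from 0 that differs between panels) in cKO polysome, cHet polysome, cKO input and cHet input libraries; points are libraries and bars the mean and SD of 3. The Pbx2 panel shows every polysome library above every input library, and the Meis1 and Irx3 panels show groups that overlap throughout.

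The first comparison asked whether the RNA of these genes in the cytoplasm differed between cKO and cHet limb buds. None of the 8 passed the test in input. The libraries of the Meis genes overlapped between genotypes. Meis1 (ENSMUSG00000020160; mm10 chr11:18879817-19018985, minus strand) had 2.12, 1.78 and 2.66 FPKM in cKO input and 2.71, 2.15 and 1.57 in cHet input. Meis2 (ENSMUSG00000027210; chr2:115863064-116065839, minus) had 6.17, 5.02 and 5.59 FPKM in cKO input and 7.14, 5.998 and 4.12 in cHet input. In both genes the highest and the lowest library belonged to the same genotype, cHet. Meis3 (ENSMUSG00000041420; chr7:16175090-16186504, plus), better known from the hindbrain, had 2.41, 2.17 and 3.82 FPKM in cKO input and 2.50, 2.37 and 1.96 in cHet input, with the high value in the cKO library that stood apart.

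Pbx2 (ENSMUSG00000034673; chr17:34591266-34597400, plus), a broadly expressed Meis and Hox partner, had 66.2, 66.3 and 77.1 FPKM in cKO input and 68.9, 67.9 and 70.3 in cHet input. Pbx3 (ENSMUSG00000038718; chr2:34171457-34373142, minus), its relative, had 7.69, 6.68 and 5.63 FPKM in cKO input and 7.29, 7.06 and 6.78 in cHet input. For both, the cHet libraries fell within the range of the cKO libraries. Irx3 (ENSMUSG00000031734; chr8:91798525-91802067, minus) had 9.23, 8.93 and 16.9 FPKM in cKO input and 10.8, 10.8 and 8.71 in cHet input. Irx5 (ENSMUSG00000031737; chr8:92357625-92376286, plus) had 13.2, 13.9 and 19.3 FPKM in cKO input and 12.90, 12.98 and 12.88 in cHet input. Irx5 was the only member whose input groups did not overlap, with cKO above cHet, and both Irx genes were highest in the cKO library that stood apart. Shox2 (ENSMUSG00000027833; chr3:66971727-66981771, minus) had 65.6, 57.8 and 64.1 FPKM in cKO input and 64.8, 59.0 and 59.5 in cHet input, with overlap.

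With limma on log2(FPKM + 0.1), 0 of 12977 tested genes passed an adjusted p of 0.05 in this comparison (0%), while 1943 had an unadjusted p under 0.05. A test on recovered read counts (voom) also called 0. The log2 differences, cKO minus cHet, lay between −0.09 (Pbx3) and 0.25 (Meis3). For Irx5 the difference was 0.24 (SE 0.16, 95% interval −0.14 to 0.62, adjusted p = 0.502), and 16.9% of all tested genes had cKO libraries that were all higher. For Pbx2 it was 0.01 (SE 0.11, interval −0.24 to 0.27) and for Shox2 0.03 (SE 0.11, interval −0.22 to 0.28). The Meis1 interval was wider, −0.54 to 0.62. Of the 8 genes, 6 lay above 0 with a median of 0.04, beside 48.6% above 0 and a median of −0.01 over all tested genes. Without cKO input replicate 3, 326 of 12827 genes passed (2.54%), and none of the 8 was among them. Leaving out that library moved the Meis3 difference to 0.012, against 0.25 with it, the Irx3 difference to −0.15, against 0.15 with it, and that of Irx5 to 0.07.

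On polysomes the question was whether the ribosome-loaded RNA of these genes differed between the genotypes, and again none of the 8 passed. Pbx2 had the lowest adjusted p of the 8. It had 85.9, 97.2 and 116 FPKM on cKO polysomes and 135, 119 and 119 on cHet polysomes, each cKO library below each cHet library. Its log2 difference was −0.32 (SE 0.17, 95% interval −0.70 to 0.06, adjusted p = 0.294, limma), and 13.5% of all tested genes had cKO libraries that were all lower. Without cKO polysome replicate 1, the lowest of its polysome libraries, the difference was −0.22 (adjusted p = 0.414). Pbx3 had 7.89, 7.71 and 7.75 FPKM on cKO polysomes and 7.89, 7.66 and 7.98 on cHet polysomes, the tightest polysome groups of the 8 genes, with a difference of −0.01 (interval −0.28 to 0.26).

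The Meis genes overlapped on polysomes as they did in input. Meis1 had 2.07, 1.52 and 3.27 FPKM on cKO polysomes and 2.30, 1.87 and 1.45 on cHet polysomes. Meis2 had 5.75, 5.75 and 9.43 FPKM on cKO polysomes and 7.07, 6.86 and 5.17 on cHet polysomes. Meis3 had 2.99, 3.78 and 4.81 FPKM on cKO polysomes and 4.61, 3.90 and 2.56 on cHet polysomes. In all 3 genes cKO replicate 3 was the highest polysome library and cHet replicate 3 the lowest. Irx3 had 11.5, 9.21 and 15.7 FPKM on cKO polysomes and 11.3, 8.99 and 9.91 on cHet polysomes, and Irx5 had 15.3, 17.5 and 16.2 on cKO polysomes and 16.1, 13.7 and 16.6 on cHet polysomes. Shox2 had 70.7, 69.9 and 81.2 FPKM on cKO polysomes and 78.5, 67.5 and 74.0 on cHet polysomes. These groups overlapped as well.

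Of 12877 genes tested on polysomes, 0 passed with limma (0%) and 0 with voom, with 2743 at an unadjusted p under 0.05. The 8 differences ran from −0.32 to 0.24 (Irx3), 6 of them above 0, with a median of 0.08 beside 0.02 over all tested genes. The Irx3 difference was 0.035 without cKO polysome replicate 3 and 0.42 without cKO polysome replicate 2. Without cKO polysome replicate 1, 160 of 12738 genes passed (1.26%), none of them a member. No member passed in either genotype comparison under any of the alternatives tried, whose lowest adjusted p for a member was 0.374 in input and 0.187 on polysomes.

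**Figure D2:**
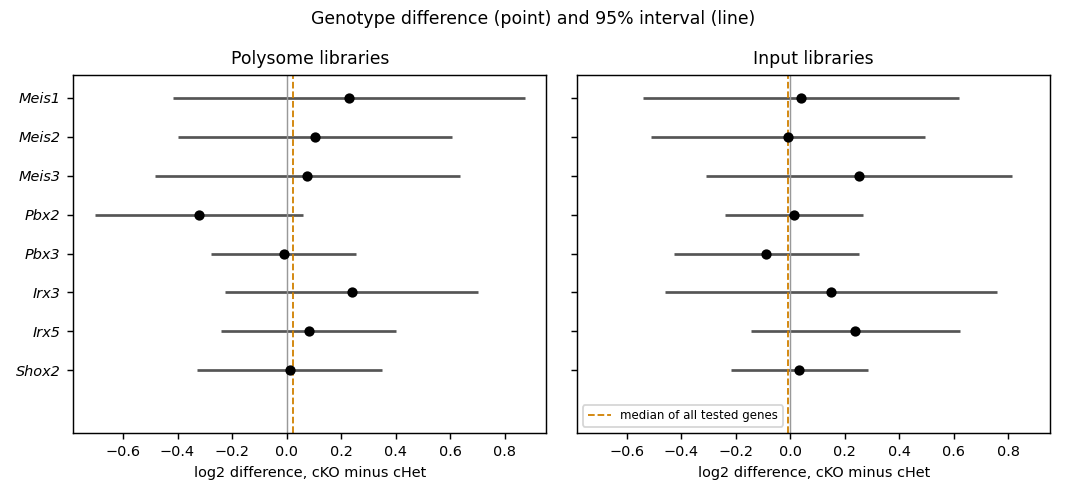
Log2 difference, cKO minus cHet, of each of the 8 genes (points) with its 95% interval (lines) in the 3 + 3 polysome libraries and the 3 + 3 input libraries; the dashed line is the median of all tested genes. Every interval includes 0, and that of Pbx2 on polysomes, −0.70 to 0.06, lies farthest to the left.

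Polysome against input asks how strongly an RNA is represented in the ribosome-loaded fraction relative to the cytoplasm. Both are scaled to their own library, so the ratio is relative to the other RNAs and not a number of ribosomes. Pbx2 was higher on polysomes in both genotypes and was the only member to pass in the main fit, which did not pair the libraries of a lysate. Its polysome to input ratio in single lysates was 1.30 to 1.51 in cKO, with a mean of 1.42 ± 0.112, and 1.69 to 1.96 in cHet, with a mean of 1.80 ± 0.144. The log2 difference, polysome minus input, was 0.51 in cKO (SE 0.14, adjusted p = 0.0154) and 0.84 in cHet (SE 0.14, adjusted p = 5.0e-04). The cKO value missed the threshold without cKO input replicate 2 (0.47, adjusted p = 0.0524), without cKO polysome replicate 3 (0.39, adjusted p = 0.0628) and after quantile normalization, which gave 0.23 (adjusted p = 0.117).

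Meis3 was the next highest. Its ratio exceeded 1 in every lysate, at 1.24 to 1.74 in cKO and 1.31 to 1.85 in cHet. In cHet all its polysome libraries lay above all its input libraries and the log2 difference was 0.64 (SE 0.26, adjusted p = 0.0524), just short of the threshold. With the lysate as a replicate block it passed (0.64, adjusted p = 0.0120). It passed as well without cHet polysome replicate 3 (0.88, adjusted p = 0.0178). Single cKO libraries left out also made it pass: input replicate 3 (adjusted p = 0.0225), polysome replicate 1 (adjusted p = 0.0460) and input replicate 2 (adjusted p = 0.04996). Leaving out a cKO library kept the cHet difference at 0.64 and changed only the spread estimate, which all groups share. Over all alternatives the adjusted p of Meis3 in cHet ranged from 0.0120 to 0.198. In cKO the difference was 0.47 (adjusted p = 0.182), 0.71 without cKO input replicate 3 (adjusted p = 0.0366) and 0.87 without both libraries that stood apart (adjusted p = 0.00953), a choice made after seeing the data.

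Shox2 and Pbx3 also had ratios above 1 in all lysates, of 1.08 to 1.27 and 1.03 to 1.38 in cKO and of 1.15 to 1.24 and 1.08 to 1.18 in cHet. For both, the polysome and input libraries did not overlap in either genotype. The Shox2 log2 difference was 0.24 in cKO (adjusted p = 0.1496) and 0.26 in cHet (adjusted p = 0.0897), with the sign reversed by quantile normalization (−0.04 in cKO and −0.10 in cHet). Without both libraries that stood apart, the cHet difference of Shox2 passed (adjusted p = 0.0302). Pbx3 differed by 0.23 in cKO (adjusted p = 0.176) and 0.15 in cHet (adjusted p = 0.319).

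The Irx genes, Meis1 and Meis2 had ratios on both sides of 1 or close to it. Irx5 ranged from 0.837 to 1.25 in cKO lysates and from 1.05 to 1.29 in cHet lysates, where its polysome libraries all lay above input (log2 0.25, adjusted p = 0.182, and 0.0499 without cKO input replicate 3). Its differences passed without both libraries that stood apart (0.31, adjusted p = 0.0295 in cKO, and adjusted p = 0.0245 in cHet), a choice made after seeing the data. For cHet, leaving out cKO libraries kept the difference of Irx5 at 0.25 and changed only the shared spread estimate. Irx3 had mean ratios of 1.07 ± 0.159 in cKO and 1.00 ± 0.158 in cHet. Meis1 lay below 1 in 2 of 3 cKO lysates and in all 3 cHet lysates, with mean ratios of 1.02 ± 0.192 and 0.880 ± 0.0403. Meis2, its close relative, averaged 1.25 ± 0.389 in cKO and 1.13 ± 0.133 in cHet.

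One member of 8 was called higher on polysomes in each genotype, while 16.9% of all tested genes in cKO and 27.3% in cHet were. Libraries did not overlap, with polysomes above input, for 3 of the 8 in cKO, where 18.5% of all genes did so, and for 5 of the 8 in cHet, where 38.1% did. The median of the 8 log2 differences was 0.24 in cKO beside 0.06 over all genes, and 0.21 in cHet beside 0.02. The comparisons within cKO and within cHet used separate libraries but 1 shared estimate of the spread.

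Whether the polysome to input ratio itself differed between genotypes was tested as an interaction over all 12 libraries. For Pbx2 the interaction was −0.34 on the log2 scale (SE 0.19, 95% interval −0.76 to 0.09, adjusted p = 0.790) and did not pass. It stayed negative in every alternative, at −0.45 to −0.16, with adjusted p from 0.512 to 0.985. It was −0.23 without cKO polysome replicate 1 and −0.16 without both libraries that stood apart. Each of the 3 cKO lysate ratios of Pbx2 was below each of the 3 cHet ratios, a separation in that direction that 9.72% of all genes showed. Over all genes, 0 of 13610 passed with limma (0%) and 0 with voom, and 638 had an unadjusted p under 0.05. The interactions of the 8 genes lay between −0.34 and 0.19, with 4 above and 4 below 0.

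**Figure D3:**
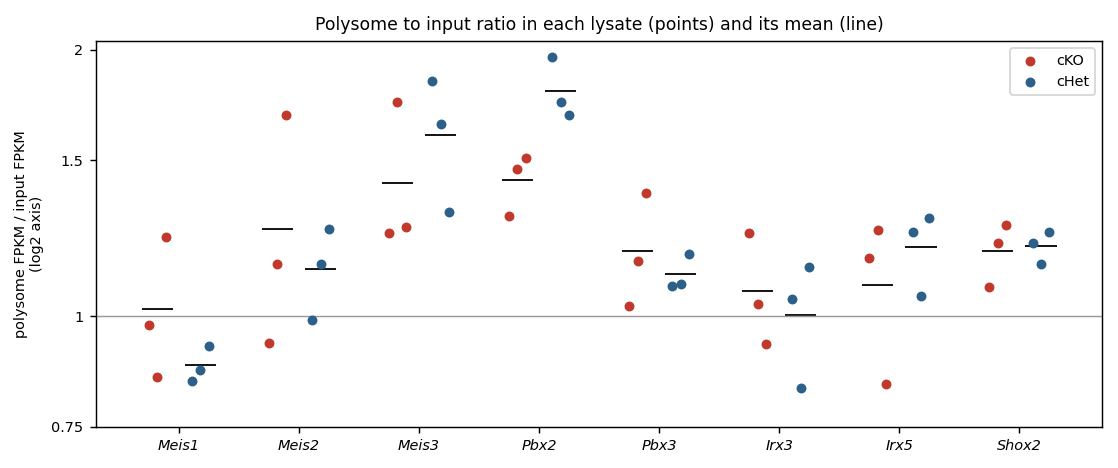
Polysome FPKM divided by input FPKM of the same lysate (vertical axis, log2 scale) for each of the 8 genes; points are 3 lysates per genotype, cKO left of cHet, and lines their means. Pbx2 lies at 1.30 to 1.51 in cKO and 1.69 to 1.96 in cHet, with no overlap between the genotypes, single cKO lysates of Meis3 and Meis2 lie above its cKO points, and the Meis1 points of cHet lie below 1.

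Ratios between relatives within a library do not depend on how libraries were scaled, but their size depends on the gene model lengths. Meis2 was 2.62 ± 0.445 times the FPKM of Meis1 in cKO input and 2.68 ± 0.0903 times in cHet input, and 3.15 ± 0.556 times on cKO polysomes and 3.44 ± 0.313 times on cHet polysomes. Irx5 was 1.38 ± 0.215 times Irx3 in cKO input and 1.29 ± 0.164 times in cHet input. Pbx3 was 0.0792 ± 0.0127 of Pbx2 on cKO polysomes and 0.0634 ± 0.00454 of it on cHet polysomes, and the groups overlapped (exact permutation test, two-sided, p = 0.2). Over 5 ratios in 2 fractions, 10 tests in all, the lowest exact permutation p was 0.2 and every adjusted p was 1. With 3 libraries against 3 the smallest p the test allows is 0.1.

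The members did not all move together across libraries. Expressed as a deviation from the mean of its fraction on the log2 scale, cHet replicate 3 was low for all 3 Meis genes in both fractions, at −0.44, −0.33 and −0.51 on polysomes and −0.41, −0.43 and −0.33 in input for Meis1, Meis2 and Meis3. The cKO replicate 3 lysate was high for Irx3, at 0.53 on polysomes and 0.67 in input, for Meis3, at 0.37 and 0.60, and for Meis1, at 0.68 and 0.31. Meis2 was high there on polysomes (0.52) and near 0 in input. Irx5 was high there in input alone (0.46), where Pbx3 was at its lowest (−0.27). That input library also had the least Mettl14 and stood apart on the principal components. The part of these in the result was not tested.

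**Figure D4:**
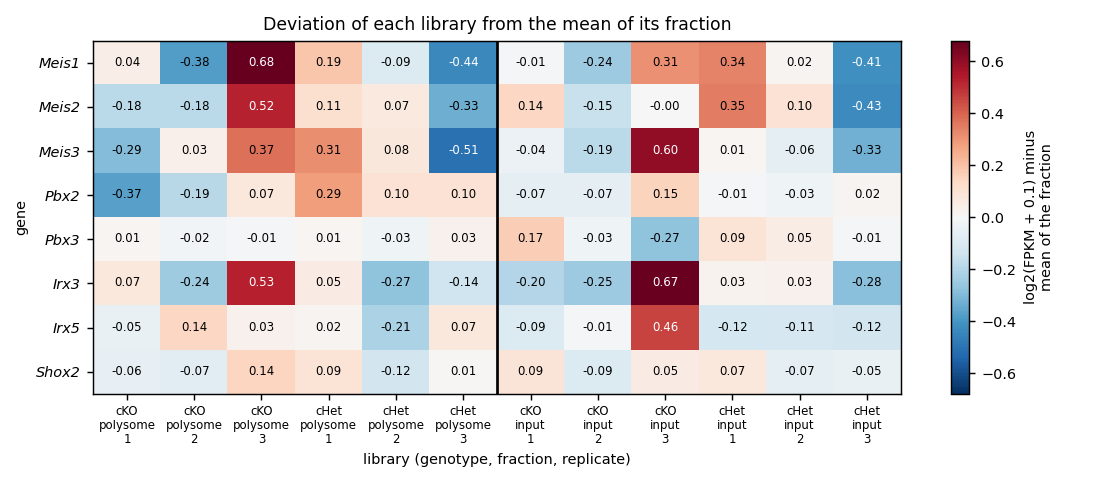
Deviation of log2(FPKM + 0.1) from the mean of the 6 libraries of the same fraction, for 8 genes (rows) in 6 polysome libraries and 6 input libraries (columns), with each value printed in its cell. Red is above and blue below the mean; the largest values are 0.68 for Meis1 in cKO polysome replicate 3 and 0.67 for Irx3 in cKO input replicate 3.

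Likeness between genes was measured as the Pearson correlation of these deviations over the 12 libraries, which come from 6 lysates and share depth within a library. It is given as a description. Among 7454 protein-coding genes with a mean of at least 5 FPKM, Meis2 was the second most like Meis1 (r = 0.884), after Rapsn (r = 0.884), a scaffold protein of the neuromuscular synapse. Meis1 was also close to Irx3 (r = 0.804), Meis3 (r = 0.734) and Shox2 (r = 0.701). Irx3 and Irx5, neighbours on chromosome 8, were at 0.644. Pbx3 ran opposite to Irx5 (r = −0.762) and Irx3 (r = −0.561). Irx3, Irx5 and Pbx3 each deviated most in cKO input replicate 3, which stood apart (0.67, 0.46 and −0.27). The correlations among them lean on that library and were not computed without it. Pbx2 had no member near it (highest r = 0.476, with Meis3), and the genes most like it were Trnp1 (r = 0.969) and Fam58b (r = 0.965). The closest genes to Irx3 were Pdzd11 (r = 0.948) and Tbx2 (r = 0.927), which encodes a T-box repressor of the limb. For Irx5 they were Fbrsl1 (r = 0.945) and Sphk2, a sphingosine kinase (r = 0.941). Meis2 had Lix1 (r = 0.826) and Dnajc15 (r = 0.798). Meis3 had Cyp4f16 (r = 0.944) and Fitm1 (r = 0.930), and Pbx3 had Tmem106b (r = 0.944) and Vps37a (r = 0.937). Shox2 had Mcee (r = 0.820) and Eef1akmt4 (r = 0.818).

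Some gene models touch others, which bears on the counts because the sources used here do not give strandedness. Rsrc1 overlaps the Shox2 model on the opposite strand and averaged 5.04 to 6.78 FPKM over the 4 groups, and Irx3os overlaps Irx3 on the opposite strand and never exceeded 0.767. Gpsm3 shares part of the Pbx2 model on the same strand, at 2.09 to 2.62. Reads in the overlaps cannot be assigned to 1 gene with certainty. Antisense models inside Meis1 and Pbx3 stayed at or below 0.177 FPKM. Irx3 and Irx5 lie 556 kb apart, and the nearest coding gene on the other side of Irx3, at 130 kb, is Fto, whose protein removes m6A. Fto averaged 6.66 FPKM on cKO polysomes (8.9, 5.7 and 5.4) and 5.08 on cHet polysomes (4.7, 4.9 and 5.7), and the groups overlapped. Its highest polysome value was in cKO replicate 1, a library that stood apart. In input it averaged 10.3 in cKO and 10.3 in cHet.

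The other TALE genes give the setting. None of the 11 tested passed the genotype test in either fraction. Those with the smallest p in input were Tgif1, a corepressor of retinoid and TGF-beta signalling, at 18.7 ± 2.31 FPKM in cKO and 14.1 ± 0.669 in cHet (log2 0.40, adjusted p = 0.235), and Irx1, at 14.7 ± 2.65 in cKO and 20.7 ± 3.15 in cHet (log2 −0.50, adjusted p = 0.269). On polysomes against input, 0 of the 11 passed in cKO and 4 rose in cHet: Pknox1, a Pbx partner (log2 0.42), Irx6 (0.50), Tgif1 (0.44) and Tgif2 (0.62). Of all tested genes, 16.9% rose and 15.6% fell in cKO, and 27.3% rose and 25.9% fell in cHet. The same shares stand beside the counts of the lists below.

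Retinoic acid activates Meis1 and Meis2 in the chick limb. Of 16 tested genes of its pathway, from a list of 19, 0 passed the genotype test in either fraction. Crabp1, a cytoplasmic retinoic acid binding protein, had the smallest p on polysomes, with 264 ± 74.2 FPKM in cKO and 523 ± 20.5 in cHet (log2 −1.03, adjusted p = 0.0896). Cyp26b1, which degrades retinoic acid in the distal bud, had 22.7 ± 3.16 FPKM on cKO polysomes and 15.0 ± 1.85 on cHet polysomes (log2 0.60, adjusted p = 0.123). The pathway's median difference was −0.17 on polysomes, with 3 of 16 above 0, and −0.01 in input, with 8 of 16 above 0. Against input, 3 of 17 rose on polysomes in cKO, with Crabp1 and Crabp2 among them, and 7 rose and 1 fell in cHet. Crabp1 and Crabp2 rose in cHet by a log2 of 1.40 and 1.25, as did Rdh10, Rara, Rarg and Rxrb (0.43 to 0.76), and Cyp26b1 fell (−0.45).

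Among other genes of the proximal bud and girdle, 11 tested of a list of 12, none passed the genotype test, and their median difference was 0.10 on polysomes and −0.0049 in input. The smallest p was that of Runx2, an osteoblast and chondrocyte factor, in both fractions, with 1.14 ± 0.0475 FPKM on cKO polysomes and 1.91 ± 0.360 on cHet polysomes (log2 −0.69, adjusted p = 0.128), and 1.49 ± 0.122 in cKO input and 2.32 ± 0.431 in cHet input (log2 −0.60, adjusted p = 0.231). On polysomes against input, Emx2, a scapula gene, and Bmp4 rose in both genotypes, by 0.44 and 0.85 in cKO and by 0.52 and 0.92 in cHet. In cHet, Alx4 (−0.73), Gli3 (−0.83) and Tbx3 (−0.48) fell.

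Hox genes of paralogue groups 9 to 11, which pattern the upper and middle limb segments and whose proteins bind with Pbx and Meis, had a median genotype difference of 0.21 in input (7 of 9 above 0) and of 0.02 on polysomes (6 of 9 above 0), and none passed. Hoxd9 had the smallest p in input, at 34.1 ± 6.75 FPKM in cKO and 21.6 ± 1.18 in cHet (log2 0.64, adjusted p = 0.181). Against input, Hoxa11 and Hoxc10 rose on polysomes in cKO (0.57 and 0.52), and these and Hoxa10, Hoxd9 and Hoxd10 rose in cHet (0.47 to 0.71).

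Distal genes mark the other end of the limb axis from Meis. Of 15 tested, 12 lay above 0 in input with a median of 0.30, and 10 on polysomes with a median of 0.28, beside −0.01 and 0.02 over all genes, and none passed. Msx2, a homeobox gene of the distal and interdigital bud, had 62.4 ± 19.1 FPKM on cKO polysomes and 24.97 ± 1.88 on cHet polysomes (log2 1.28, adjusted p = 0.0780), and 52.6 ± 8.98 in cKO input and 23.9 ± 2.54 in cHet input (log2 1.13, adjusted p = 0.141). Against input, 4 of 16 rose and 1 fell on polysomes in cKO, and 6 rose and 2 fell in cHet, with the homeobox genes Lhx2 (0.62 in cKO and 1.17 in cHet) and Msx1 (0.76 and 1.15) among the genes that rose in both. Over all tested genes, 16.9% rose and 15.6% fell in cKO, and 27.3% rose and 25.9% fell in cHet. Whether proximal and distal genes differed was not tested.

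Cell markers moved beside these values. The summed limb mesenchyme markers were at 921 to 1334 FPKM on cKO polysomes and 1001 to 1059 on cHet polysomes. In input they were at 683.9 to 873.3 in cKO and 554.9 to 645.2 in cHet, where the groups did not overlap. Of these 7 markers, 6 lay above 0 in the genotype difference on polysomes and 5 in input. Prrx1 (−0.09) and Pdgfra (−0.06) lay below 0 in input. All 7 epidermis markers lay above 0 in the genotype difference in both fractions, with sums of 157 to 328 on cKO polysomes and 114 to 129 on cHet polysomes, and of 315 to 351 in cKO input and 266 to 268 in cHet input. The 6 tested macrophage markers also lay above 0 in both, with sums of 36.4 to 62.0 on cKO polysomes and 24.02 to 33.60 on cHet polysomes, and of 34.9 to 49.0 in cKO input and 28.2 to 32.3 in cHet input. The 6 erythroid markers lay below 0 in both. Chondrocyte sums, led by Col2a1 and Sox9, were 61.8 to 76.0 in cKO input and 57.6 to 80.1 in cHet input. Of 5 tested chondrocyte markers, 4 lay below 0 in input (median −0.45, with Matn4 at −0.76 and Cnmd at −0.75) while Col2a1 lay above (0.41), and 2 lay below 0 on polysomes. Of the other markers, 4 of 6 muscle genes lay above 0 on polysomes and 1 of 6 in input, 5 and 2 of 7 endothelial genes, and 6 and 5 of 7 nerve and Schwann cell genes. None of these markers passed the genotype test. In polysome against input, 5 of 7 epidermis markers fell in cKO and 7 of 7 in cHet, as did 2 and 4 of 6 chondrocyte markers. So did 3 and 3 of 6 muscle, 3 and 4 of 7 endothelial, and 2 and 3 of 7 nerve and Schwann cell markers. Macrophage markers fell in 0 and 3 of 6, and limb mesenchyme markers in 1 and 1 of 7. Rises were seen for 1 and 2 endothelial, 1 and 1 macrophage, and 2 and 3 limb mesenchyme markers. Of all tested genes, 15.6% fell in cKO and 25.9% in cHet, and 16.9% and 27.3% rose. The part of these cells in the values of the 8 genes was not tested.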

How the data were processed

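RNA-seq values were used from 12 mouse limb bud libraries, 3 in each of 4 groups, grouped by the labels. HISAT2 2.0.5, featureCounts 1.5.0-p3 and mm10 are named, per the submitters' processing notes. The table the authors deposited holds FPKM of 54532 genes. FPKM times gene length gave whole reads (tolerance 0.01) for 100% of values above 0, from which depth, 10349912 to 30068823 reads, was taken. Library selection and strandedness are not given in the sources used here.

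Values were analysed as log2(FPKM + 0.1), which understates changes of low genes, with limma 3.58.1 in R 4.3.3 and an intensity trend. Genes with at least 1 FPKM in 3 fitted libraries were tested, and calls needed a two-sided Benjamini-Hochberg adjusted p under 0.05. Genotype comparisons used the 6 libraries of a fraction, and the other comparisons all 12, with 4 group means. The pipeline was run on simulated input libraries with no outlying library and with changes larger than the genotype differences of the members. That run does not show whether differences as small as theirs would be found. The labels do not tie replicates to embryos, so p-values measure the spread between these samples.

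Polysome and input libraries of the same genotype and number were read as 1 lysate, from the design. Their deviations from group means correlated at 0.05 to 0.25. Numbers shared across genotypes had correlations of −0.28 to 0.17 and were not read as pairs.

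The members and gene lists were chosen with earlier results of these data known. Named genes are all members. From each list come those past the threshold, or else those with the smallest p, 2 at most. To these were added the 2 protein-coding genes most like each member, overlapping gene models and nearest coding genes. Sequences came from the mm10 genome and GENCODE M21, which held 54409 of 54532 gene identifiers, 98.3% with the same coordinates. Alternatives were other pseudocounts (1 and 0.01), filters (none, or a mean of 2 FPKM), median-ratio scaling, quantile normalization, voom with TMM scaling on recovered reads, replicate blocks, pooled fits and leaving out libraries.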

Additional observations from a re-analysis of the deposited data

How the results depend on the processing

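No member was called in either genotype comparison under any alternative, and every sign that turned was that of a difference below its threshold; the causes were not tested. Meis3 and Meis1 had the fewest reads, 133 to 333 and 212 to 894 per library, and the part of depth in their spread was not tested.

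Over all genes, the count called between genotypes in input moved to 82 when the 4 group means were fitted on all 12 libraries, and ranged from 0 to 326 with 1 library left out, highest without cKO input replicate 3. On polysomes it moved to 42 with the replicate number as a block and to 184 with the 4 group means, and ranged from 0 to 231, highest without cKO polysome replicate 2. Shared numbers across genotypes were not read as pairs. Polysome against input in cKO called 4424 genes, 8012 without both libraries that stood apart, and 2441 to 6023 with 1 library left out, where 2441 was the count without cKO polysome replicate 3. The interaction called 1 gene with a pseudocount of 0.01 and 7 with no filter on low values. With the lysate as a replicate block, Meis3 in cHet passed (adjusted p = 0.0120), and no other call on a member changed.

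Scaling and the test turned small differences. In input, median-ratio scaling gave −0.024 for Pbx2 and −0.0061 for Shox2, quantile normalization gave 0.00073 for Meis2, −0.046 for Pbx2 and −0.025 for Shox2, and voom gave −0.014 for Pbx2. On polysomes, Shox2 was at −0.022 with median-ratio scaling and −0.023 with voom. For polysome against input, quantile normalization gave −0.043 in cKO and −0.10 in cHet for Shox2 and 0.083 in cHet for Irx3, and voom gave −0.021 in cKO for Meis1 and 0.018 in cHet for Irx3.

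Leaving out 1 library moved the input genotype difference across 0 for Meis1 (−0.16 to 0.22), Meis2 (−0.23 to 0.16), Pbx2 (−0.060 to 0.050), Pbx3 (−0.20 to 0.025), Irx3 (−0.15 to 0.31) and Shox2 (−0.0040 to 0.087). On polysomes it did so for Meis1 (−0.053 to 0.48), Meis2 (−0.13 to 0.22), Meis3 (−0.16 to 0.25), Pbx3 (−0.028 to 0.0014), Irx5 (−0.0050 to 0.14) and Shox2 (−0.058 to 0.062). For polysome against input it did so in cKO for Meis1 (−0.27 to 0.26), Irx3 (−0.12 to 0.38) and Irx5 (−0.011 to 0.26), and in cHet for Meis1 (−0.37 to 0.0019), Meis2 (−0.053 to 0.34) and Irx3 (−0.11 to 0.071). Pbx2 kept its sign throughout on polysomes, in polysome against input and in the interaction. Among log2 ratios, cKO minus cHet, those of Meis2 to Meis1 in input (−0.14 to 0.10), Meis3 to both other Meis genes on polysomes (−0.21 to 0.022), Pbx3 to Pbx2 in input (−0.25 to 0.085), Irx5 to Irx3 on polysomes (−0.39 to 0.051) and in input (−0.0077 to 0.22), and Shox2 to Meis1 and Meis2 on polysomes (−0.24 to 0.054) and in input (−0.11 to 0.22) crossed 0.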
